A study of Brassica rapa with 18 samples.

Results

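The change in leaves over 3 days without methyl jasmonate (MeJA) was measured in 6 of the 18 RNA-seq libraries of the series, the mock-sprayed leaves frozen at 72 h and those frozen at 10 min after spraying, with 3 libraries in each group. The libraries were chosen by their labels alone. The plants belonged to R-o-18, an inbred line of Brassica rapa var. trilocularis labelled wild type (WT), and were sprayed at an age of 10 days with 10 mL of distilled water holding 0.1% Tween-20, a detergent that helps a spray to spread. The 10 min and 72 h groups shared this genotype, spray, growth medium and light regime, and neither group received MeJA. Another 3 mock libraries of 24 h, and MeJA libraries of the same times sprayed with 50 µM MeJA in 0.1% Tween-20, are used for comparison. No unsprayed leaves are analysed here.

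A leaf of a young seedling passes from cell division to cell expansion and on to full photosynthetic activity, and its transcriptome changes along this course. Wetting and moving a leaf by spraying is itself a stimulus, to which touch-responsive genes react within minutes. In this design the time after spraying, the age of the plant and the batch given in the labels all have the same value for every library of a group, so their parts in the difference between 72 h and 10 min cannot be told apart.

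Genes are given by identifier because the identifiers could not be paired with gene names: 1 of the 42186 features matched the RefSeq gene table used here, and it had no counts. For the same reason the labelled tissue was not checked against leaf markers, and lists of photosynthesis, cell cycle, clock, touch or senescence genes were not filled. The 6 libraries held 13923330 to 17796115 counts. The first principal component of log2 CPM (CPM being counts scaled to a common library size) held 51.8% of the variance of these 6 libraries and placed the 10 min libraries between -39.1 and -37.8 and the 72 h libraries between 25.1 and 52.6. Mock 10 min replicates 2 and 3 were the closest pair of replicates, with 1.49 as their chi-square per degree of freedom against 4.90 to 7.87 for the other 5 pairs within the groups. Counting error alone would give a value near 1. All 3 libraries were treated as separate. The series describes replicates as independent, and the number of plants behind each library is not given in the sources used here, so p-values measure the spread between these libraries, whatever its source.

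Mock leaves at 72 h differed from mock leaves at 10 min in 5247 of 26593 features tested, or 19.7%. Of these, 2436 (9.16% of the features tested) rose and 2811 (10.6%) fell, at an adjusted p under 0.05 in edgeR's quasi-likelihood test with Benjamini-Hochberg adjustment. Most changes were small. The median log2 fold change, on which scale 1 is a 2-fold change, was 0.58 among rises and -0.56 among falls, against 0.01 over all features tested. Of the rises, 10% lay below 0.35 and 10% above 1.15, and of the falls, 10% lay below -1.26 and 10% above -0.32. The count of called features was 3245, 3204 and 3371 without mock 10 min replicate 1, 2 or 3, and 3092 and 2922 without mock 72 h replicate 2 or 3, with falls in the majority each time.

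Falls reached further than rises. At least 2-fold changes were called for 357 rises (1.34% of the features tested) and 485 falls (1.82%), and at least 4-fold changes for 31 rises (0.117%) and 75 falls (0.282%). At 8-fold or more there were 15 falls and 1 rise. The count of 4-fold falls was 115 without mock 72 h replicate 1, the 72 h library in which these genes stood highest. The gene with the steepest rise, at a log2 fold change of 4.25, had a mean under 1 CPM over the 6 libraries and so is not described singly.

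Called genes with at most 3 counts in total over the lower group were few in both directions. No gene that rose was without counts in the 10 min libraries, and no gene that fell was without counts in the 72 h libraries. At most 3 counts over the lower group were found for 2 of the rises and 1 of the falls. Among all features tested, 116 had at most 3 counts over the 10 min libraries and 97 over the 72 h libraries.

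The share of features called differed with their level. The median of the mean level over the 6 libraries was 14 CPM for rises, 24 CPM for falls and 9.17 CPM for all features tested. Among the 10958 features between 1 and 10 CPM, 8.04% rose and 6.13% fell. Among the 11347 features between 10 and 100 CPM the order was the opposite, with 11.6% rising and 15.6% falling. Of the 1384 features at 100 CPM or more, 10.8% rose and 21.2% fell, and of the 2904 below 1 CPM, 3.00% rose and 2.65% fell. Fold changes shrank with the level: the median among falls was -1.81 below 1 CPM and -0.48 at 100 CPM or more. At low counts a larger fold is needed for a call.

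**Figure D1:**
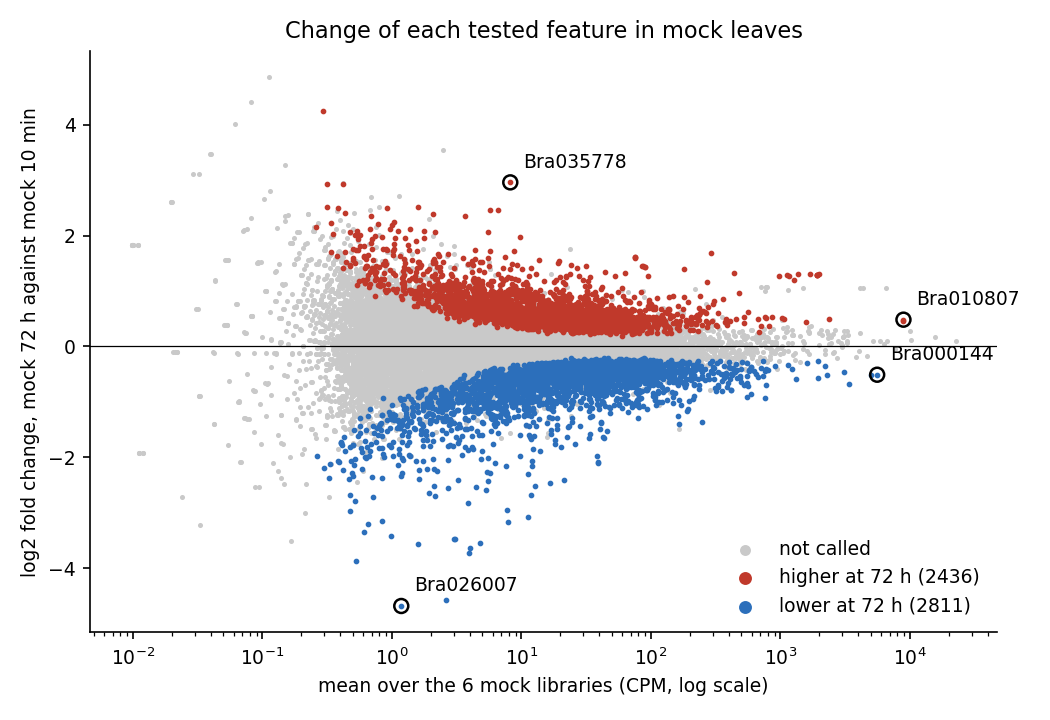
Log2 fold change of each of 26593 features between mock 72 h and mock 10 min against its mean level over the 6 mock libraries in CPM, on a log axis. Red points rose (2436), blue points fell (2811), grey points were not called, and the 4 circled identifiers are those described in the text; the falls reach -4.68, and the features at 100 CPM or more were called lower (21.2%) more often than higher (10.8%).

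Genes that fell held 19.05% to 19.16% of all counts in the 10 min libraries and 12.7% to 13.7% in the 72 h libraries. Genes with Bra identifiers that rose held 7.75% to 8.13% at 10 min and 10.6% to 11.6% at 72 h. These shares describe genes picked by the same contrast and carry no test. At 24 h the falling genes held 15.3% to 17.2% and the rising Bra genes 9.59% to 10.5%, so each share at 24 h lay between its values at 10 min and 72 h.

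Bra035778 had the largest fold change among rises of Bra identifiers with a mean of at least 1 CPM and no overlap between the groups, a condition that 44.5% of all features tested met in either direction. It stood at 1.55, 1.44 and 2.65 CPM in the 10 min libraries and at 14.1, 17.4 and 12.04 CPM in the 72 h libraries, from 23 to 37 counts and from 185 to 293 counts. Every 72 h library was above every 10 min library. The means were 1.88 ± 0.670 CPM (SD, n = 3) and 14.5 ± 2.73 CPM, which gave a log2 fold change of 2.96 with an SE of 0.37 (adjusted p = 0.000138 in edgeR's test). At 24 h the mock libraries held 11.5, 10.6 and 26.9 CPM, the last of them above every 72 h library.

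Bra010807 had the largest difference in mean level among the rises. Its 10 min libraries held 7543, 7335 and 7412 CPM and its 72 h libraries 9536, 10462 and 11131 CPM. The groups did not overlap, although the change was small beside that of Bra035778. The means were 7429.9 ± 105 CPM (SD, n = 3) and 10376 ± 801 CPM, which gave a log2 fold change of 0.48 with an SE of 0.12 (adjusted p = 0.00837 in edgeR's test). At 24 h it stood at 9319.9 ± 396 CPM (SD, n = 3), between the means at 10 min and 72 h.

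Bra026007 had the largest fold change among falls by the same conditions. It had 42, 31 and 29 counts in the 10 min libraries, or 2.82, 1.94 and 2.08 CPM, and 3, 1 and 0 counts in the 72 h libraries. The transcript was thus near the limit of detection at 72 h, where 3 counts amount to 0.176 to 0.195 CPM. The means were 2.28 ± 0.476 CPM (SD, n = 3) and 0.0784 ± 0.0894 CPM, which gave a log2 fold change of -4.68 with an SE of 0.59 (adjusted p = 0.000141 in edgeR's test); at such counts the SE is approximate. The mock libraries of 24 h held 47, 47 and 60 counts, so its level of 3.30 ± 0.549 CPM (SD, n = 3) at 24 h was not below that at 10 min.

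Bra000144 had the largest difference in mean level among falls. It stood at 6115, 6762 and 6795 CPM in the 10 min libraries and at 5024, 4141 and 4637 CPM in the 72 h libraries. All 72 h libraries were below all 10 min libraries, by a modest margin. The means were 6557 ± 383 CPM (SD, n = 3) and 4601 ± 443 CPM, which gave a log2 fold change of -0.51 with an SE of 0.12 (adjusted p = 0.00823 in edgeR's test). Its level of 4382 ± 227 CPM (SD, n = 3) at 24 h was close to that at 72 h, the reverse of the course of Bra026007.

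**Figure D2:**
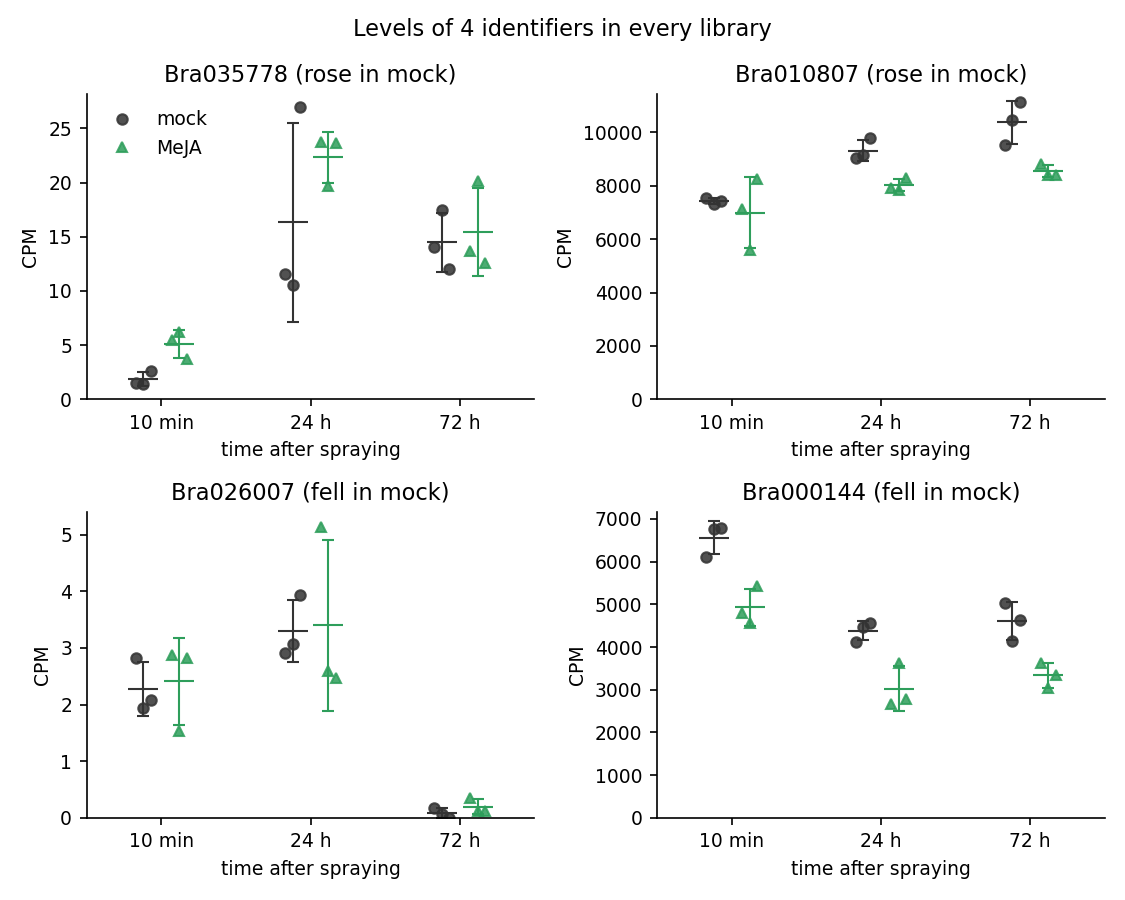
CPM of the 4 identifiers in each of the 18 libraries by time after spraying, with circles for mock and triangles for MeJA, and a bar for the mean with whiskers of 1 SD (n = 3). Bra026007 was at 0 to 0.176 CPM in mock at 72 h after 2.92 to 3.93 CPM at 24 h, whereas Bra000144 was already at 4124 to 4552 CPM at 24 h.

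The late course of Bra026007 was also that of the strong falls as a set. The 75 genes that fell at least 4-fold had a median level of 3.43, 2.82 and 2.94 CPM in the 10 min libraries, of 2.73, 2.93 and 2.95 CPM in the 24 h libraries and of 0.762, 0.476 and 0.325 CPM in the 72 h libraries. Their levels at 24 h were within the range of the 10 min libraries or just below it, and those at 72 h lay apart. Their median log2 fold change was 0.00 from 10 min to 24 h and -2.18 from 24 h to 72 h. The 2326 genes that fell less than 2-fold divided their change more evenly, with medians of -0.27 and -0.22 over the same intervals. For the 410 falls between 2-fold and 4-fold the medians were -0.37 and -0.86.

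The strong rises took a larger part of their change before 24 h. The 31 genes that rose at least 4-fold had a median level of 0.202, 0.251 and 0.358 CPM in the 10 min libraries, of 0.807, 0.912 and 0.983 CPM at 24 h and of 1.11, 1.31 and 1.11 CPM at 72 h. Their median log2 fold change was 1.86 from 10 min to 24 h and 0.93 from 24 h to 72 h. In the 10 min libraries 3 counts amount to 0.202, 0.188 and 0.215 CPM, so the set started near the limit of detection. Its fold changes from 10 min are therefore approximate. For the 2079 rises under 2-fold the medians were 0.30 and 0.23. The comparisons of 24 h with 10 min and of 72 h with 24 h each share libraries with the choice of these genes, so the values describe the course and carry no test, and each of the 3 times is its own batch.

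**Figure D3:**
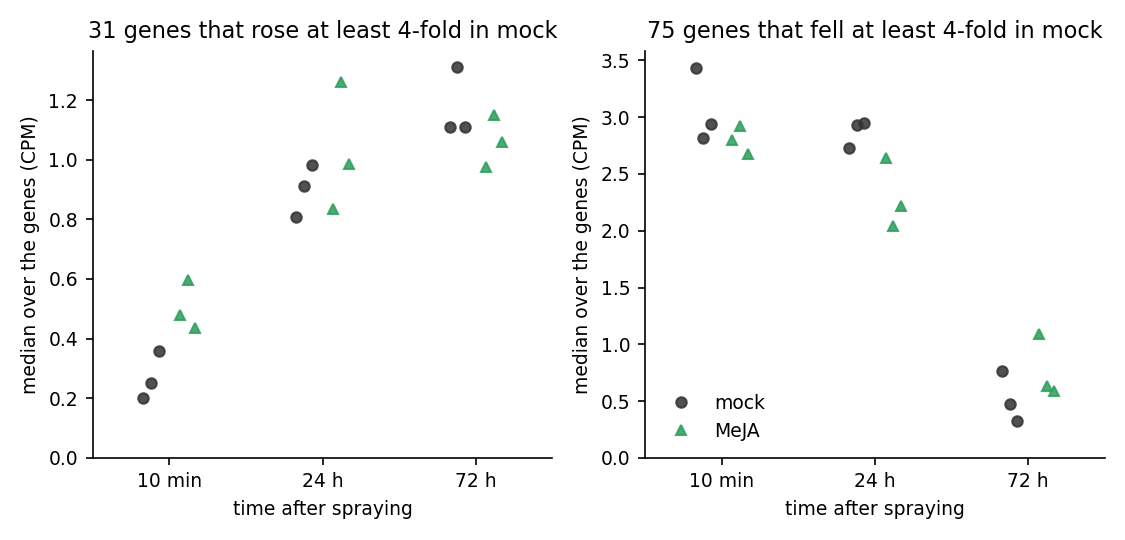
Median CPM over the 31 genes that rose at least 4-fold (left) and the 75 that fell at least 4-fold (right) in mock leaves, in each library by time after spraying, with circles for mock and triangles for MeJA. The falling set stood at 2.73 to 2.95 CPM in mock at 24 h and at 0.325 to 0.762 CPM at 72 h, and the rising set was already at 0.807 to 0.983 CPM at 24 h.

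The 10 largest falls also stood no lower at 24 h than at 10 min in their range of levels. They are the largest among 2716 falls of Bra identifiers with a mean of at least 1 CPM and no overlap, and their log2 fold changes ran from -4.68 to -3.07. Their mean levels ran from 2.28 to 19.9 CPM at 10 min, from 3.30 to 21.3 CPM at 24 h and from 0.0784 to 2.35 CPM at 72 h. Bra026007 set the low end at each time, and such ranges do not follow the other genes singly. The 10 largest of 2296 rises under the same conditions had log2 fold changes of 2.07 to 2.96 and mean levels of 0.355 to 2.1 CPM at 10 min, of 0.602 to 16.3 CPM at 24 h and of 1.65 to 14.5 CPM at 72 h. Their median log2 fold change was 1.15 from 10 min to 24 h and 0.97 from 24 h to 72 h. This was a more even course than that of all 31 strong rises, of which these 10 are a part. The 10 had to average at least 1 CPM, whereas the 31 had a median mean level of 0.78 CPM. Whether the course goes with the level was not tested. The 10 largest falls had medians of 0.30 and -3.94 over the same intervals.

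The MeJA libraries of 10 min and 72 h cover the same interval in other leaves, in the same labelled batches. Their levels do not enter the mock difference. The choice of features tested, the scaling and the estimate of spread came from all 18 libraries, however. Calls in mock and in MeJA leaves are therefore not from independent tests. Between these libraries 3157 features (11.9% of those tested) rose and 3763 (14.2%) fell, by the same edgeR test. Features called in the same direction in both sprays numbered 1333 for rises (5.01% of those tested) and 1545 for falls (5.81%). The 1333 are 54.7% of the mock rises and 42.2% of the MeJA rises, and the 1545 are 55.0% of the mock falls and 41.1% of the MeJA falls. Opposite calls were rare: 3 mock rises fell with MeJA and 12 mock falls rose with MeJA. The shared rises numbered 886 and 868 without mock 10 min replicate 1 or 2 and 884 and 852 without mock 72 h replicate 2 or 3, and the shared falls 979 without mock 72 h replicate 3. The MeJA rises and falls together, 6920, numbered 4535 without MeJA 72 h replicate 2.

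Most genes called in mock leaves lay on the same side of 0 with MeJA whether or not they were called there. Of the 2436 mock rises, 2298 (94.3%) had a log2 fold change above 0 between the MeJA libraries, against 48.4% of all features tested. Of the 2811 mock falls, 2616 (93.1%) were below 0, against 51.6% of all. The medians in MeJA leaves were 0.44 for the mock rises and -0.40 for the mock falls, each nearer to 0 than the 0.58 and -0.56 at which the genes were picked.

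The 75 strong falls were also low in MeJA leaves at 72 h. All 75 had a log2 fold change below 0 between the MeJA libraries, with a median of -1.95. Of the 75, 63 (84.0%) were called lower there, against 14.2% of all features tested. Their median level was 2.80, 2.92 and 2.68 CPM in the MeJA libraries of 10 min and 1.09, 0.633 and 0.587 CPM in those of 72 h. At 24 h it was 2.64, 2.04 and 2.22 CPM with MeJA, below each mock library of 24 h. Of the 31 strong rises, 29 were above 0 with MeJA, and the median of the 31 was 1.05. With MeJA 12 of the 31 (38.7%) were called higher, against 11.9% of all features tested. Among the 10 largest falls, all 10 were called with MeJA, at -3.59 to -2.01, and among the 10 largest rises 6 were, over a range of 0.11 to 3.66.

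Of the 4 identifiers described singly, 3 were also called in MeJA leaves. Bra026007 fell from 2.41 ± 0.761 CPM (SD, n = 3) to 0.192 ± 0.132 CPM in MeJA leaves (log2 fold change -3.59 with an SE of 0.50; adjusted p by edgeR = 0.000142). Bra000144 fell from 4929 ± 439 to 3339.9 ± 289 CPM (SD, n = 3; log2 fold change -0.56 with an SE of 0.12; adjusted p by edgeR = 0.00329). Bra035778 rose from 5.13 ± 1.31 to 15.5 ± 4.08 CPM (SD, n = 3; log2 fold change 1.58 with an SE of 0.32; adjusted p by edgeR = 0.00195). Bra010807 did not pass, at 6988 ± 1335 and 8555 ± 239 CPM (SD, n = 3; log2 fold change 0.29 with an SE of 0.12; adjusted p by edgeR = 0.0713).

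**Figure D4:**
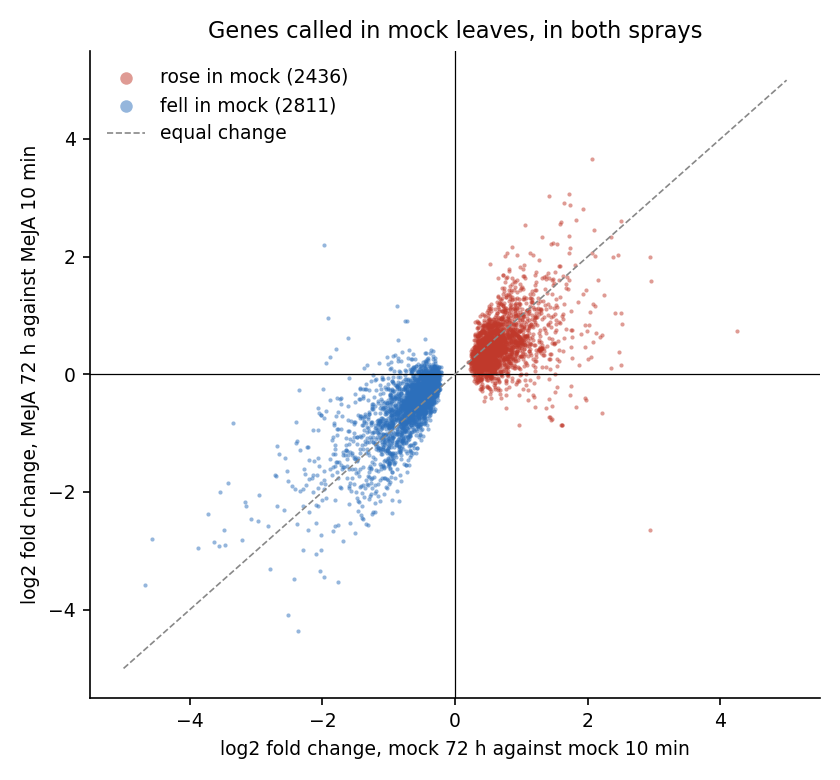
Log2 fold change from 10 min to 72 h in MeJA leaves against that in mock leaves, for the 2436 features that rose (red) and the 2811 that fell (blue) in mock leaves; the dashed line marks equal change. Of the rises, 2298 lie above the horizontal 0 line, and of the falls, 2616 lie below it.

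Whether the change over 3 days itself differed between the sprays was tested as an interaction in the same fit. It was called for 80 features (0.301% of those tested), with 70 (0.263%) more positive and 10 (0.0376%) more negative in MeJA leaves than in mock leaves. Of the features called in mock leaves, 7 rises and 9 falls were among the 80, and the other 64 had not been called in mock leaves. The 70 had a median log2 fold change of -0.10 in mock leaves and 1.07 in MeJA leaves. Of the 31 strong rises, 2 were among the 80. Of the 75 strong falls, 0 were, by edgeR's test as by DESeq2. At an unadjusted p under 0.05 in edgeR's test 16 of the 75 passed, against 3387 of all 26593 features tested. The interaction contains the mock difference by which the mock rises and falls were picked. Counts of interactions within these picked sets therefore describe them and carry no test. With a median level of 0.515 CPM in mock leaves at 72 h, the 0 calls do not show an equal fall in both sprays. The interaction of the 4 identifiers described singly was not called, with edgeR adjusted p values of 0.248 for Bra035778, 0.667 for Bra010807, 0.659 for Bra026007 and 0.936 for Bra000144. DESeq2 called 371 interactions, 300 more positive and 71 more negative, and edgeR called 375 with only the 12 libraries of 10 min and 72 h fitted, 232 more positive and 143 more negative. The count of 80 also depended on single libraries. It was 31 without MeJA 10 min replicate 1, 123 without MeJA 10 min replicate 3, and 30 and 19 without MeJA 72 h replicate 1 or 2. It was 35, 17 and 19 without mock 10 min replicate 1, 2 or 3, and 22, 21 and 21 without mock 72 h replicate 1, 2 or 3.

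Features with ENSRNA identifiers, the prefix under which Ensembl lists non-coding RNA genes, were called in 1 direction. Of 1168 in the table, 71 were abundant enough to test, of which 27 rose by edgeR's test (38.0%, against 9.16% of all features tested) and none fell. DESeq2 called 25 of them higher and 0 lower, and 0 were lower at an unadjusted p under 0.05 in edgeR's test. Another 39 had a log2 fold change above 0 without passing the test, and the 71 ran from -0.89 to 1.61 with a median of 1.05. Which RNA each of them encodes is not given in the sources used here. Counts of 11 of the 71, among them 9 of the 27, were within 2% of those of another ENSRNA feature in every one of the 6 libraries, so the 27 are not 27 separate measurements.

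Together, ENSRNA features took 3.00%, 2.14% and 1.87% of the counts in the 10 min libraries and 5.80%, 5.19% and 4.42% in the 72 h libraries. The groups did not overlap, with means of 2.34% ± 0.590 and 5.14% ± 0.691 (SD, n = 3). The difference of 2.80 percentage points had p = 0.1 in an exact two-sided permutation test, the smallest p that 3 against 3 libraries allow. The rise was not a steady one. The mock libraries of 24 h held 0.997%, 1.52% and 1.39%, less than every 10 min library, and the median log2 fold change of the 71 features was -0.46 from 10 min to 24 h and 1.76 from 24 h to 72 h. In MeJA leaves the groups overlapped, at 1.35%, 4.31% and 1.77% at 10 min and 1.69%, 3.98% and 4.03% at 72 h. There 1 ENSRNA feature was called higher and 0 lower by edgeR's test, as by DESeq2. At an unadjusted p under 0.05 in edgeR's test, 1 was lower. The interaction was called for 0 of the 71 ENSRNA features by edgeR's test, so a difference between the sprays in these features was not shown.

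**Figure D5:**
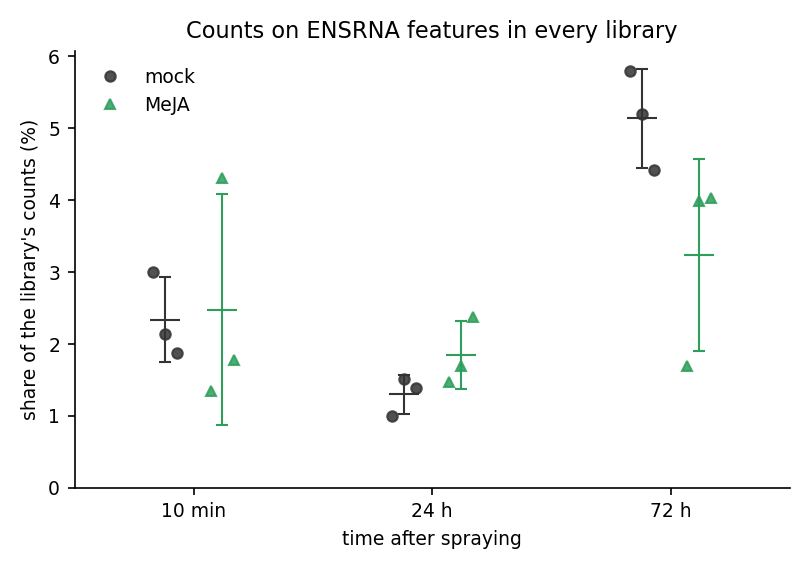
Share of each library's counts on ENSRNA features, in percent, by time after spraying, with circles for mock, triangles for MeJA, and a bar for the mean with whiskers of 1 SD (n = 3). The mock libraries of 72 h, at 4.42% to 5.80%, lie above all other mock libraries, and the MeJA libraries of 10 min and 72 h overlap.

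The ENSRNA share moved with the groups, and all but 1 of the 27 ENSRNA rises lay between 2-fold and 4-fold, where they made up 26 of 326 rises. The 31 strong rises and the 75 strong falls held none. With ENSRNA features left out before library sizes, scaling and fit, 2319 features rose and 2889 fell, and the strong sets again numbered 31 and 75. The part of the ENSRNA share in the other differences between the groups was otherwise not tested.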

How the data were processed

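The authors deposited whole-number read counts per gene, not normalised, from strand-specific, paired-end messenger RNA libraries. Tools named in the submitters' processing notes are edgeR, FastQC, HTSeq and TopHat2; their versions, the genome build, the annotation, the strand setting and the treatment of reads shared by gene copies were not given in the sources used here, so near-identical copies and overlapping genes are uncertain. Per the labels' protocols, growth was at 22 °C under days of 16 h light, and RNA had an integrity number above 7.

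Features were filtered with filterByExpr of edgeR 4.0.16 (R 4.3.3), scaled by TMM, and fitted in 1 quasi-likelihood model of 6 group means over all 18 libraries. SE is the log2 fold change divided by the root of F. CPM use TMM-scaled library sizes; log2 CPM used a prior count of 2. Chi-squares of replicate pairs used features with at least 10 counts. A floor of 3 counts amounts to 0.176 to 0.215 CPM in the 6 libraries and covers counting error only.

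Named identifiers were, per direction, the largest fold change and the largest difference in mean CPM among called Bra identifiers averaging at least 1 CPM in the 6 libraries without overlap. Members and lists were chosen with earlier results of these data known. The RefSeq table of CAAS_Brap_v3.01 (51589 genes) matched 1 identifier. On simulated counts for mock 72 h against mock 10 min over 26196 genes, the share recovered was 34.3% at 1.5-fold, 64.2% at 2-fold and 92.4% at 4-fold, with 7 unchanged genes called. Only 200 genes were changed there, far fewer than the 5247 called in the data, and genes with few expected counts were left out. These shares are therefore not the sensitivity of the comparison itself. Alternatives were other scalings, filters, DESeq2 1.42.0, fewer libraries, a replicate block and a fold threshold.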

Additional observations from a re-analysis of the deposited data

Results flagged for a closer look

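The change from 10 min to 72 h differed between MeJA and mock leaves for 80 features by the interaction test (edgeR quasi-likelihood, adjusted p under 0.05), and these are the only results that met a rule for a closer look. Of these, 70 were more positive with MeJA, with median levels of 36.8 CPM in mock and 29.1 CPM in MeJA leaves at 10 min and of 34.1 and 73.1 CPM at 72 h. The other 10 were more negative with MeJA, at medians of 7.76 and 9.61 CPM at 10 min and of 8.46 and 4.45 CPM at 72 h. Groups of 3 libraries were too small for the test of single outlying libraries.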

How the results depend on the processing

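The count of 5247 features called in mock leaves was 842 with a log2 fold change of at least 1 required, and ran from 2922 to 4627 on leaving out single mock libraries. Among the other alternatives it ran from 4615 (no filter) to 7530 (only the 6 mock libraries in the fit), and falls outnumbered rises in all 15. The 4-fold rises ran from 27 to 37 on leaving out single libraries and numbered 48 without a filter; the 4-fold falls ran from 59 to 115. Under the same fold requirement, 1750 features were called in MeJA leaves, 124 rises and 285 falls were shared by both sprays, and 53 interactions were called. Leaving out single libraries gave 4535 to 6308 calls in MeJA leaves, 852 to 1197 shared rises, 979 to 1405 shared falls and 17 to 123 interactions. The interaction count was 371 by DESeq2 (80.9% more positive) and 375 with the 12 libraries of 10 min and 72 h alone (61.9% more positive, against 87.5% of the 80); the cause was not tested. The alternatives for the shared and 4-fold counts were chosen after seeing the data.

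Deviations of same-numbered mock libraries of 10 min and 72 h from their group means had correlations of -0.029, 0.095 and -0.105. Those of differently numbered libraries ran from -0.165 to 0.175. With 3 libraries in each group, these values cannot decide whether the numbers pair the libraries. With a replicate block, 4934 features were called in mock leaves and 33 interactions.

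The 4 identifiers kept their direction under 15 alternatives each, and their calls under all of them except that Bra010807 and Bra000144 miss a log2 fold change of 1 by size. The ENSRNA difference ran from 2.39 to 3.16 percentage points over 8 alternatives. Depth limits genes such as Bra026007 at 72 h, whose log2 fold change ran from -5.86 to -4.18.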
